A study of Mus musculus with 2 samples.

Results

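Interferon-responding fibroblasts of the mouse heart were described here in 2 single-cell libraries, 1 from hearts after sham surgery and 1 from hearts after transverse aortic constriction (TAC), which narrows the aorta and puts the left ventricle under pressure. A cell counted as a fibroblast if Dcn, Col1a1, Col1a2 and Col3a1, which encode decorin and the chains of collagens I and III, made up at least 0.3% of its unique molecular identifiers (UMIs), with at most 1 UMI of Ptprc and Pecam1 together, the pan-leukocyte and endothelial surface markers. A fibroblast counted as interferon-responding if it held at least 1 UMI in at least 4 of 6 selection markers, which were Ifit1, Ifit3, Isg15, Rsad2, Irf7 and Usp18. The rule found 453 such cells among 11650 fibroblasts and 17327 barcodes, 86 of them sham and 367 TAC cells. The remaining 6141 sham and 5056 TAC fibroblasts, called other fibroblasts below, served as the comparison within each library. The levels of the 6 markers and of the 4 fibroblast genes chose the cells, so these levels are given as a description.

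Both libraries came from male C57BL6/J wildtype mice, taken 20 days after the operation (sham or TAC), with no other allele or agent named. Hearts were digested with collagenase II, collagenase IV and protease XIV, cardiomyocytes were left to settle out, lysis cleared the red cells, debris was taken out, and viable cells that excluded DAPI were sorted and captured on a 10x Chromium lane each. The number of hearts behind each library is not given in the sources used here. With 1 library per group there is no replicate, no test and no p-value: intervals in parentheses are exact 95% intervals that cover counting error only, and a difference between the libraries cannot be told apart from a difference between these hearts or these preparations.

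Type I interferons bind a receptor made of IFNAR1 and IFNAR2, and type II interferon binds IFNGR1 and IFNGR2. The kinases JAK1, TYK2 and JAK2 then phosphorylate transcription factors in the cytoplasm. The complex ISGF3, which contains STAT2 and IRF9, binds the interferon-stimulated response element (ISRE) in promoters, and the gamma-activated site (GAS) is the element read after type II interferon. The genes that follow encode antiviral effectors, sensors of foreign nucleic acid, GTPases, ubiquitin-like modifiers and parts of antigen presentation, several of which also act back on the pathway.

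Of the 6 selection markers, Ifit1 encodes a binder of foreign RNA ends, Ifit3 its partner, Isg15 a ubiquitin-like modifier, Rsad2 the antiviral enzyme viperin, Irf7 a transcription factor of type I interferon genes and Usp18 a protease that removes ISG15 and dampens receptor signalling. Promoter sequences from RefSeq on GRCm38.p6, from 250 bases before to 50 after each transcription start, were searched on both strands for the ISRE core GAAANNGAA and the GAS core TTCNNNGAA, which may overlap in position. Of the 5 selection markers with an entry, 4 held an ISRE core and 0 held a GAS core, beside 8.56% and 8.30% of all 32851 promoters. Stretches of 120 bases that hold the cores of these 4 genes are shown because the cells were chosen by their RNA, with the matched cores in capitals. The bases run from 160 to 41 before the start, at chr19:34640729-34640848 (+) for Ifit1, chr19:34583369-34583488 (+) for Ifit3, chr4:156200859-156200978 (-) for Isg15 and chr12:26456493-26456612 (-) for Rsad2.
Ifit1: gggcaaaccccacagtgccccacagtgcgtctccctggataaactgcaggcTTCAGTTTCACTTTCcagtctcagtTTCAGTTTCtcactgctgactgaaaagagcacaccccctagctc
Ifit3: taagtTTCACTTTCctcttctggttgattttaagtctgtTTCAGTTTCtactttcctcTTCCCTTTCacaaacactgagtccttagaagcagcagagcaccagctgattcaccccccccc
Isg15: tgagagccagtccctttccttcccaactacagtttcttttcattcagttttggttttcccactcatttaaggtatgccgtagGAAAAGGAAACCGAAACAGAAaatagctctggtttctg
Rsad2: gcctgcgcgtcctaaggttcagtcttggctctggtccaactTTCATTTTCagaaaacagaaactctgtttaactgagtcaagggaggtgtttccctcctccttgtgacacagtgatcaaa

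Ifit1 and Ifit3 lie near each other on chromosome 19 and each held 3 ISRE cores in this stretch, on the strand opposite to the one printed. Isg15 held 3 overlapping cores on the printed strand, and Rsad2 held 1 on the opposite strand. Among the interferon genes outside the rule, 46 of 80 genes with a promoter entry held an ISRE core (57.5%) and 17 held a GAS core (21.2%). Over all 27025 genes these shares were 9.76% and 9.55%, where a gene counted if any of its listed starts held the core. The guanylate-binding proteins and immunity-related GTPases held both most often among these lists, with an ISRE core in 9 of 10 genes and a GAS core in 6 of 10. A match is a run of letters and was not tested as a binding site.

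The sham library held 42490230 UMIs in 8426 barcodes and the TAC library 96003109 in 8901. The TAC library was thus deeper per cell, and the rule reads single UMIs, so depth stands beside each share. The median other fibroblast held 4998 UMIs (sham) or 11941.5 UMIs (TAC), and the median interferon-responding fibroblast held 5379.5 UMIs (2300 to 13924) and 13782 UMIs (1632 to 38058). Median mitochondrial shares were 2.91% and 3.12% in the interferon-responding cells and 3.12% and 3.34% in the other fibroblasts. The libraries shared 15 barcodes, and 2 of these were interferon-responding fibroblasts in either library.

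Interferon-responding fibroblasts made up 1.38% of fibroblasts in the sham library (86 of 6227, 1.11 to 1.70%) and 6.77% in the TAC library (367 of 5423, 6.11 to 7.47%), a ratio of 4.90 (3.87 to 6.27). When every fibroblast was thinned to 3800 UMIs, leaving out 1188 sham and 245 TAC cells below that depth, 0.893% of sham cells (45 of 5039, 0.652 to 1.19%) met the rule, and 2.63% from TAC did (136 of 5178, 2.21 to 3.1%). The ratio was then 2.94 (2.09 to 4.22), and over 50 thinning draws it ran from 2.21 to 3.19. The TAC share stayed above the sham share at equal depth, with a ratio smaller by more than 1.5 times.

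Within a library, the share of interferon-responding cells differed with the depth of the cell. Among sham fibroblasts it was 0.912% between 1000 and 4000 UMIs (13 of 1426), 1.37% between 4000 and 8000 (60 of 4391) and 3.19% between 8000 and 16000 (13 of 407). Among TAC fibroblasts it was 0.391% (1 of 256), 2.0% (9 of 449) and 6.4% (250 of 3906) in the same bands, and 13.2% from 16000 UMIs on (107 of 812), where the sham library had only 3 fibroblasts. In the lowest band the TAC share was the smaller, on 1 cell, and in the other shared bands it was the larger.

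**Figure D1:**
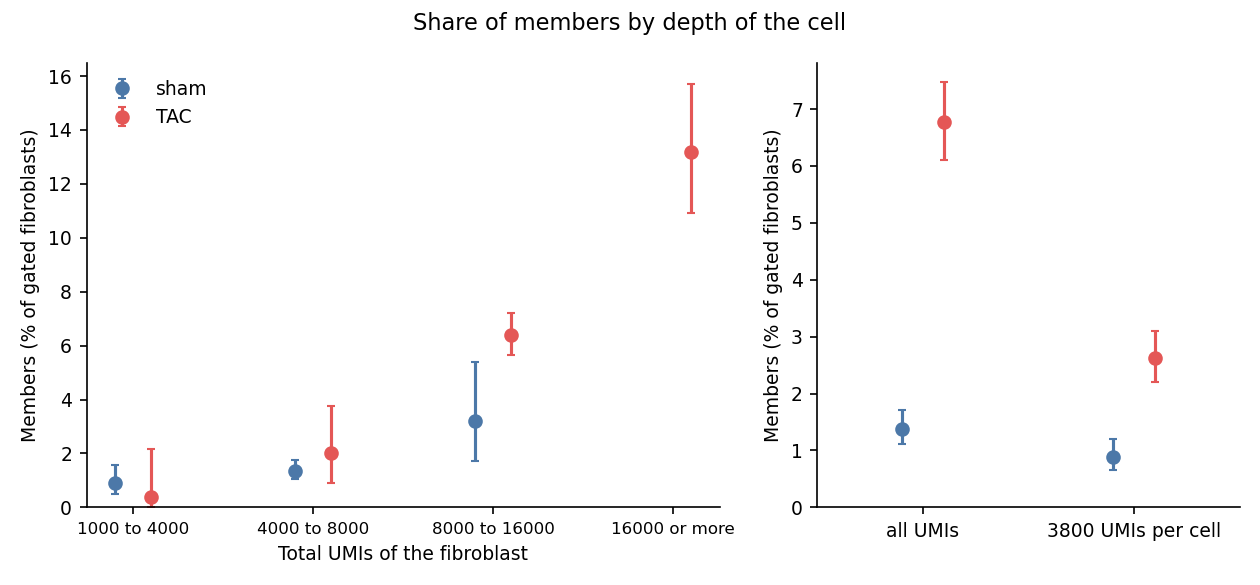
Percentage of fibroblasts that met the interferon rule (vertical axis) by total UMIs of the cell (left panel) and over all cells with all UMIs or thinned to 3800 UMIs (right panel), for the sham and TAC libraries, with exact 95% intervals as bars. The share was larger in deeper cells of both libraries, and the ratio of TAC to sham was 4.90 with all UMIs and 2.94 at equal depth.

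The other cells of these hearts also met the 6-marker rule. In cells chosen by macrophage genes (C1qa, C1qb, C1qc and Csf1r), 36 of 1157 sham cells (3.11%) and 129 of 1049 TAC cells (12.3%) did, a ratio of 3.95. At 3800 UMIs these shares were 2.24% (18 of 805) and 3.22% (32 of 995), a ratio of 1.44 (0.783 to 2.72), whose interval includes 1. The fibroblast ratio at equal depth had an interval that overlaps this one, and the difference between the cell types was not tested. In cells chosen by endothelial genes the thinned share was 7.16% in the TAC library (28 of 391), and the sham library had only 6 such cells deep enough, none of which met the rule.

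The selection markers were unevenly seen among the chosen cells. Isg15 was present in 90.7% of sham and 94.3% of TAC interferon-responding fibroblasts, at 530.4 and 694.7 CPM (UMIs per 1000000 UMIs) when the cells were summed, against 19.4 and 26.5 CPM in other fibroblasts. Ifit3 stood at 775.2 and 701.1 CPM against 16.1 and 20.8 CPM, and Ifit1 at 722.8 and 383.9 CPM against 15.8 and 10.2 CPM. Rsad2 was the marker seen least, in 30.2% and 39.0% of the chosen cells, at 112.7 and 116.4 CPM against 1.14 and 1.71 CPM. Irf7 stood at 307 and 273.8 CPM and Usp18 at 147.7 and 138.1 CPM. The middle chosen cell held 3 UMIs of Ifit1 in the sham library (0 to 34) and 2 in the TAC library (0 to 159), so most cells carried few copies and a few carried many.

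Each marker was also read in cells chosen by the other 5 alone, with at least 4 of these 5 seen, which leaves the marker itself out of the choice. Rsad2 was then 58.7 times its level in the remaining fibroblasts in the sham library and 53.6 times in the TAC library. Ifit3 was 46.7 and 34.3 times higher, Ifit1 41.3 and 32.2 times, and Isg15 25.9 and 25 times. Usp18 was 18.3 and 13.1 times higher and Irf7 13.4 and 11.5 times. All 6 markers were thus higher in both libraries in cells picked without them.

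A sum over 105 interferon genes outside the rule, from 5 lists of antiviral effectors, sensors and ISGF3, ubiquitin, PARP and TRIM genes, the p200 family, and GBP and IRG GTPases, was larger in cells with more markers. Cells with 0 markers stood at 5293 CPM in the sham library (4643 cells) and 5813 CPM in the TAC library (2609 cells). Just outside the threshold, cells with 3 markers stood at 10024 CPM (72 cells) and 9330 CPM (280 cells). Just inside it, cells with 4 markers stood at 13784 CPM (52 cells) and 10979 CPM (158 cells), and cells with all 6 at 23987 CPM (8 cells) and 22239 CPM (89 cells). The level had no gap at the threshold, so the rule cuts a range. At 3800 UMIs the median cell with 0 markers held 19 sham and 22 TAC UMIs of these genes, and the median cell with 6 held 85 and 76.

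Per cell, the 86 sham interferon-responding fibroblasts ran from 4323 to 35647 CPM of these genes with a median of 15039, and the 367 TAC cells from 4360 to 56595 CPM with a median of 13333. The median other fibroblast stood at 5239 and 6051 CPM, and the highest at 31165 and 24272 CPM. The ranges of chosen and other fibroblasts overlapped in both libraries: 72 of 86 sham cells (83.7%) and 242 of 367 TAC cells (65.9%) lay above the 95th percentile of the other fibroblasts.

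**Figure D2:**
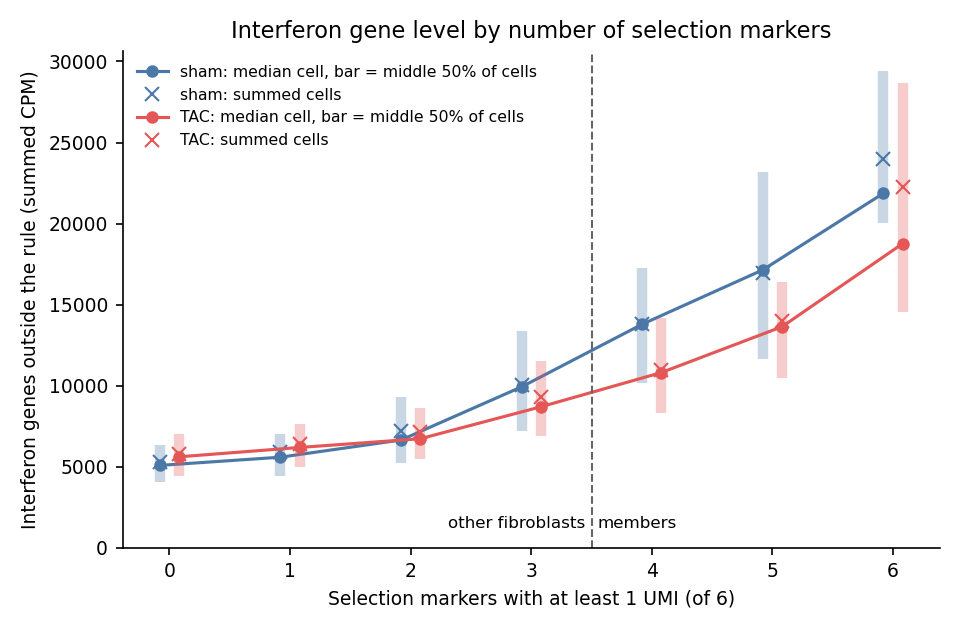
Level of the 105 interferon genes outside the rule in CPM (vertical axis) in fibroblasts with 0 to 6 selection markers seen (horizontal axis), as the median cell with the middle 50% of cells as a bar and as the sum over cells as a cross, for each library. The level is larger with each further marker on both sides of the dashed line that marks the rule, from about 5293 CPM (sham, summed) at 0 markers to 23987 CPM at 6.

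No interferon transcript was seen in the interferon-responding fibroblasts. Of 20 ligand genes, 0 UMIs fell in the 86 sham or the 367 TAC cells, which allows up to 5.83 CPM per gene in the sham cells and 0.561 CPM in the TAC cells (3 counts of their total). Ifng, the type II interferon, was counted 130 and 165 times over all sham and all TAC cells, of which 0 and 2 lay in any fibroblast. The one type I gene in the sham library, Ifnb1, had 2 UMIs, and Ifnk had 1 UMI in the TAC library. Ligand RNA was thus near the limit of these libraries outside the cells that carried Ifng.

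The receptors and their kinases were at like levels in interferon-responding and other fibroblasts. Their summed ratio was 0.980 (0.921 to 1.04) in the sham library and 1.00 (0.980 to 1.03) in the TAC library. A gene counted as measured at 50 CPM or more in either group of cells, and as higher or lower at a 2-fold difference on the log2(CPM + 1) scale. Since most interferon genes reached 50 CPM in the interferon-responding cells alone (15 of 55 measured in sham and 14 of 54 in TAC reached it in other fibroblasts), lists are counted over every gene with a UMI. Of all 3687 genes measured in the sham library, 84 were 2-fold higher in the interferon-responding cells (2.28%) and 6 were lower (0.163%), and of 3383 in the TAC library, 63 were higher (1.86%) and 1 was lower (0.0296%). Of all 17979 sham genes with any UMI, 858 were higher (4.77%) and 1186 lower (6.6%), and of 19343 in TAC, 222 were higher (1.15%) and 30 lower (0.155%). Against that background, 1 of 13 receptor and kinase genes was higher and 1 lower in the sham library, and 0 of 14 were higher or lower in the TAC library. Ifnar1, a type I receptor chain, stood at 27.2 CPM against 31.1 in the sham library and at 34.8 against 36.6 CPM in the TAC library. Jak1 stood at 254.5 against 256.7 CPM and at 220.7 against 211.8 CPM. Socs1, an inhibitor of the JAK kinases, stood at 1.62 and 1.55 times its level in other fibroblasts, and Socs3, a related inhibitor, at 0.899 and 0.862 times.

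The signal factors and sensors were higher. Of 18 listed genes, 11 were at least 2-fold higher in each library, with median log2 ratios of 1.66 and 1.26 beside -0.09 and -0.02 over all genes with a UMI. Stat2, a part of ISGF3, stood at 124.3 CPM (95.8 to 158.8) against 22.1 CPM in the sham library, 5.63-fold, and at 99.6 CPM (91.3 to 108.4) against 20.8 CPM in the TAC library, 4.78-fold. Irf9, the DNA-binding partner in ISGF3, was 4.16-fold and 3.13-fold higher. The RNA sensors MDA5 and RIG-I, encoded by Ifih1 and Ddx58, were 4.26-fold and 3.87-fold higher in the sham library, and 4.50-fold and 3.74-fold higher in the TAC library. Irf1 and Irf2, an activator and a repressor that bind related sites, stayed within 2-fold, with ratios of 1.46 and 1.41 for Irf1 and 1.16 and 1.19 for Irf2.

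Of 32 antiviral effectors outside the rule, 24 were 2-fold higher in each library, and the median log2 ratio was 2.20 for sham and 1.98 for TAC. Ifit3b, a near copy of Ifit3, stood at 50.5 CPM (33.0 to 74.0) against 1.77 CPM in sham cells, 28.6-fold, and at 66.2 CPM (59.5 to 73.4) against 2.45 CPM in TAC cells, 27.0-fold. Reads of such copies, which include other Ifit, GBP, Phf11 and MHC genes, may be split or lost between them. Zbp1, a sensor of Z-form nucleic acid that links to cell death, was 19.4-fold higher in the sham cells and 10.5-fold in the TAC cells. Oasl2, of the oligoadenylate synthetase family, was seen in 77.9% of sham interferon-responding cells against 11.4% of other fibroblasts, and in 92.1% against 29.6% in the TAC library. Its level was 10.5-fold and 7.60-fold higher.

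Other effectors were higher as well. Cmpk2, a mitochondrial nucleotide kinase whose gene neighbours Rsad2, was 10.4-fold and 11.0-fold higher, and Rtp4, 9.50-fold and 8.56-fold. Bst2, the tetherin that holds budding virus at the membrane, stood at 530.4 against 98.9 CPM and at 545 against 153.3 CPM, 5.36-fold and 3.56-fold. Ifitm3, a membrane protein that blocks viral entry, was present in all interferon-responding cells and in 98.9% and 99.2% of other fibroblasts, so that the difference was one of level, 2.30-fold (sham) and 1.72-fold (TAC). Ifi27 did not follow the list, at 0.776 times the other fibroblasts' level in the sham library (0.630 to 0.946) and 0.957 times in the TAC library (0.894 to 1.02). Mx1, a dynamin-like antiviral GTPase, was too low to count as measured, with 11 UMIs in 86 sham cells and 120 UMIs in 367 TAC cells, or 21.4 and 22.4 CPM against 0.189 and 0.296 CPM in other fibroblasts.

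The genes of ISG15 conjugation, PARP and TRIM families were 2-fold higher for 25 of 29 listed in the sham and 24 of 29 in TAC, with median log2 ratios of 1.85 and 1.69. Rnf213, a very large ubiquitin ligase, stood at 108.8 against 15.5 CPM in the sham library and at 119.4 against 19.1 CPM in the TAC library, 7.03-fold and 6.24-fold. Trim30a was 7.22-fold and 5.30-fold higher, Phf11d 7.59-fold and 6.65-fold, and Slfn8, of the Schlafen family, 6.79-fold and 6.33-fold. Parp14, an ADP-ribosyltransferase, was 3.95-fold and 4.03-fold higher. Lgals3bp, a secreted glycoprotein, was 3.64-fold higher in the sham cells and 1.88-fold in the TAC cells, where the level in other fibroblasts was 151.7 CPM against 84.4 CPM in the sham library.

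GBP and IRG GTPases, which attack the membranes around intracellular pathogens, had the largest summed ratio of the interferon lists in both libraries. Of 16 listed genes, 14 were past 2-fold in sham and 13 in TAC, and the list's sum was 6.54 times higher (6.05 to 7.06) in the sham cells and 6.49 times (6.30 to 6.69) in the TAC cells. Iigp1 stood at 272 against 20.3 CPM and at 282.4 against 25 CPM, 13.4-fold and 11.3-fold. Ifi47 was 12.9-fold and 14.5-fold higher, Igtp 10.0-fold and 7.0-fold, and Gbp3 8.14-fold and 6.73-fold. Members of the p200 family, nuclear DNA-binding proteins, differed less: 8 of 10 sham genes and 4 of 9 TAC genes were past 2-fold, with Ifi203 at 3.57-fold and 3.21-fold and Ifi205 at 1.32-fold and 1.23-fold.

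Genes of antigen presentation by MHC class I were higher in part. Of 18 listed genes, 7 were 2-fold higher in each library. Tap1, the peptide transporter subunit, stood at 66.1 against 18.0 CPM and at 87.1 against 22.1 CPM, 3.68-fold and 3.94-fold. The immunoproteasome subunits Psmb8 and Psmb9 were 3.09-fold and 2.89-fold higher in the sham cells and 2.59-fold and 2.75-fold in the TAC cells. The class I chains themselves differed less, with H2-K1 at 1.69-fold and 1.37-fold and B2m at 1.43-fold and 1.26-fold. MHC class II genes summed to 5.09 and 2.34 times the other fibroblasts' level, but without the 3 sham and 1 TAC chosen cells whose macrophage genes reached the macrophage level, and the 65 and 7 other fibroblasts that did so, these ratios were 0.631 (0.399 to 0.949) and 0.846 (0.732 to 0.972).

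**Figure D3:**
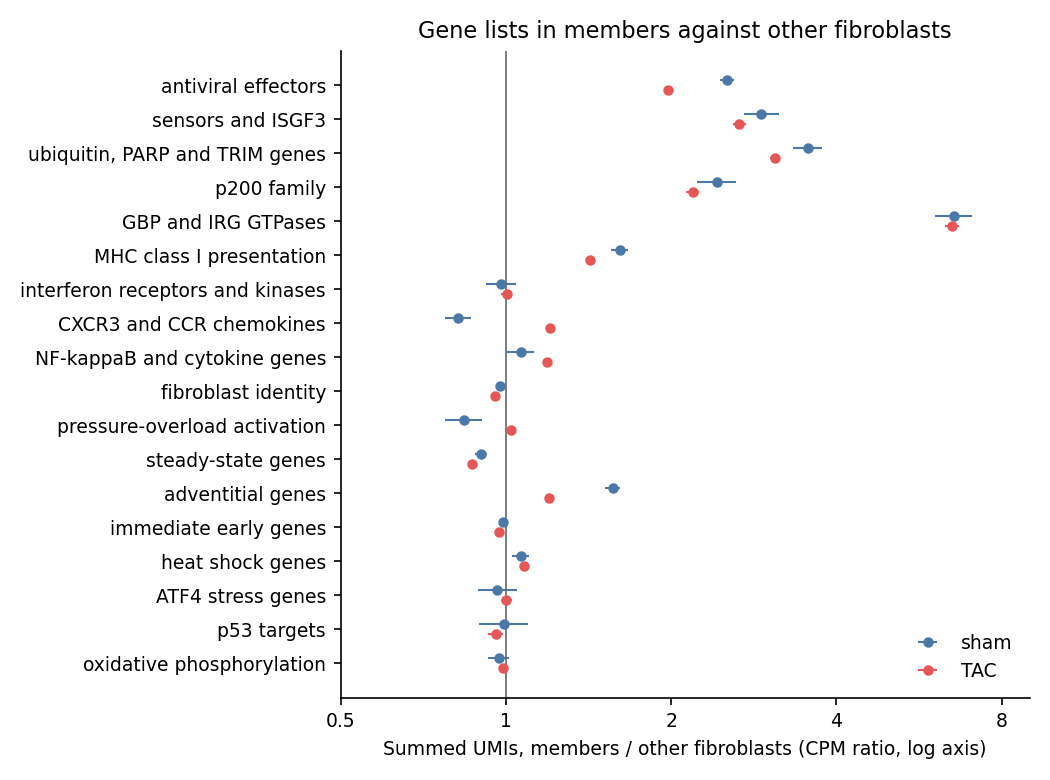
Ratio of summed CPM in interferon-responding fibroblasts to that in other fibroblasts (horizontal log axis) for a part of the gene lists (vertical axis), sham and TAC, with exact 95% intervals as bars. Not shown are the selection and gate genes, interferon ligands, MHC class II, cell cycle genes and all markers of other cell types. Some of these lay further from 1, such as epicardial markers at 18.4 in TAC and red cell genes at 0.132 in sham. GBP and IRG GTPases stand at 6.54 and 6.49, the other interferon lists between these and 1, and the receptors and kinases at 0.980 and 1.00.

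Among genes measured in both libraries, those 2-fold higher in the interferon-responding cells were much the same. Of these 3135 genes, 67 were higher in the sham library, 58 in the TAC library and 55 in both. Most interferon genes counted as measured through the interferon-responding cells alone, so the next count is a description. Of the 55 genes, 48 were on an interferon or MHC list, lists that were written with earlier results of these data known. The 7 others, Aftph, Cxcl10, Ly6a, Ly6e, Mndal, Plscr2 and Trim12a, are given because they were outside every list of interferon genes, and were picked after their values were seen. Ly6a, the surface protein Sca-1 found on many stromal cells, stood at 3258 CPM (3104 to 3418) against 707.2 CPM in the sham library and at 1672 CPM (1637 to 1707) against 514.4 CPM in the TAC library, 4.61-fold and 3.25-fold. Ly6e, a related membrane protein, stood at 954 against 276.3 CPM and at 901.2 against 339.3 CPM. Mndal, of the p200 family, was 3.88-fold and 4.01-fold higher, Plscr2 4.68-fold and 3.40-fold, Aftph 3.65-fold and 3.24-fold, and Trim12a 3.03-fold and 2.57-fold.

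**Figure D4:**
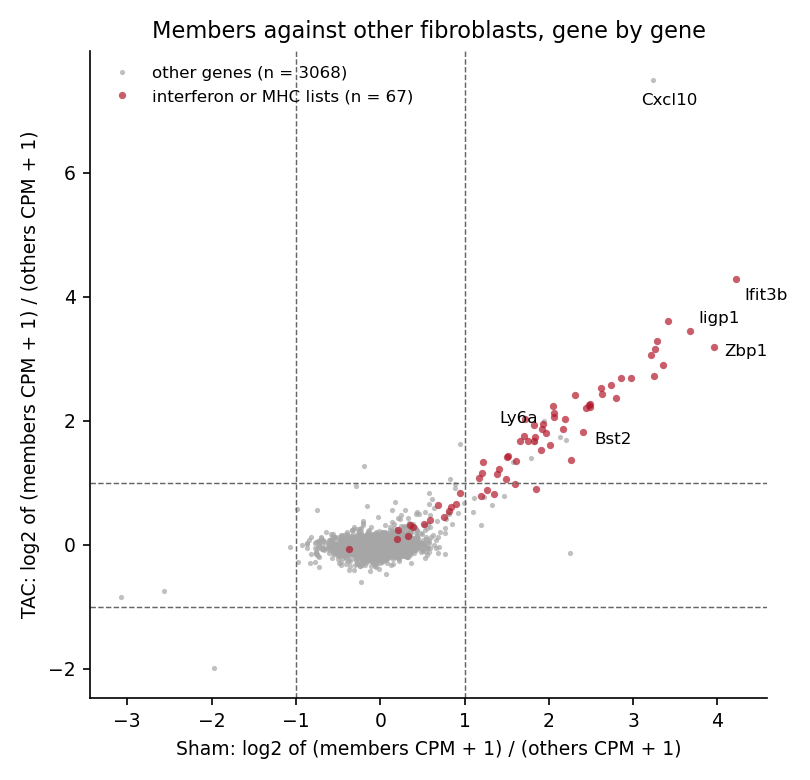
Each point is 1 gene measured in both libraries, with the log2 ratio of CPM + 1 in interferon-responding (members) over other fibroblasts in sham on the horizontal axis and in TAC on the vertical axis; red marks genes on an interferon or MHC list, and dashed lines mark 2-fold. In the upper right corner lie 55 genes, 48 of them red, and Cxcl10 stands far above the rest.

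Cxcl10, a chemokine that draws T cells through CXCR3, was carried by few cells. In the TAC library 26 of 367 interferon-responding fibroblasts (7.08%) held 1763 UMIs, of which 4 cells held 76.6% (650, 347, 208 and 146 UMIs), and 13 cells held at least 10. The 5056 other TAC fibroblasts held 51 UMIs in 45 cells (0.890%), with at most 5 in a cell, so the summed levels were 329.5 against 0.839 CPM. Macrophage-gated cells of the TAC library held 1275 UMIs in 68 of 1049 cells (6.48%). In the sham library 5 of 86 interferon-responding cells held 27 UMIs, 16 of them in 1 cell, and 63 other fibroblasts held 148.

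The 13 TAC cells with at least 10 Cxcl10 UMIs, chosen on that gene, carried all 6 markers in 10 cases. They had fibroblast genes at 1.09 to 4.53% of UMIs, 0 UMIs of Ptprc and Pecam1, and 0 doublet calls. The RefSeq promoter of Cxcl10 holds 1 ISRE core, at chr5:92349010-92349129 (-), 240 to 121 bases before the start, with the core in capitals.
Cxcl10: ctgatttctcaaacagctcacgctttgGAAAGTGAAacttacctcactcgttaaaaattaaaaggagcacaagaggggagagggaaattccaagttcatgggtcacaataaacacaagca

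Genes named here for these 13 cells were picked after their values were seen, and are compared with the other 354 TAC interferon-responding cells. Ccl2, the monocyte attractant, stood at 3160 against 82.5 CPM, seen in 10 of the 13 cells and in 34 of the 354, and Ccl7, its neighbour and relative, at 1121 against 5.63 CPM. Cxcl9, another CXCR3 ligand, had 2 UMIs in 1 of the 13 cells, and Ccl5 had 0, with 25 in the 354. Rsad2 was 13.2-fold higher in the 13 cells, Gbp5 26.6-fold with 42.9% of its UMIs in 1 cell, Icam1, an adhesion molecule for leukocytes, 6.99-fold with 36.4% in 1 cell, and Irf1 5.47-fold with 51.9% in 1 cell. Vcam1, another adhesion molecule, stood at 2065 against 288.2 CPM, with 51.1% of its UMIs in 1 cell. C3, the central complement component, was at 0.579 times its level in the other 354 cells.

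Apart from Cxcl10, chemokines and NF-kappaB genes did not stand apart as lists: their summed ratios were 0.803 and 1.02 for chemokines without Cxcl10, 0.818 and 1.21 with it, and 1.06 and 1.19 for NF-kappaB and cytokine genes. Ccl11, the eotaxin, stood at 35.0 CPM (20.7 to 55.3) in sham interferon-responding fibroblasts against 166.5 CPM in other sham fibroblasts, 0.210 times (0.124 to 0.332), from 18 UMIs. At 3800 UMIs, 3.85% of these sham cells held Ccl11 (0.8 to 10.8%) against 15.0% of other sham fibroblasts (14.0 to 16.0%). In the TAC library Ccl11 stood at like levels in both, at 5.23 and 5.33 CPM, so the sham difference was not seen there. Both values lay above the floor of 3 counts but below the 50 CPM of a measured gene.

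Fibroblast identity genes were at like levels in interferon-responding and other fibroblasts. Their sum stood at 0.975 and 0.955 times the other fibroblasts' level. The 4 gate genes took a median 2.92% and 2.95% of UMIs against 3.02% and 2.88%. Both groups were chosen by these 4 genes, so their values are a description only. Heat shock genes stood at 1.06 and 1.08 times, immediate early genes such as Fos at 0.987 and 0.972, ATF4 stress genes at 0.965 and 1.00, p53 targets at 0.990 and 0.958, oxidative phosphorylation genes at 0.970 and 0.986, and cell cycle genes at 0.872 and 1.05. Adventitial genes, a list that holds Ly6a, stood at 1.57 and 1.20 times, with median log2 ratios over the listed genes of 0.11 and 0.06. Of the list's 7436 against 4749 CPM in sham, Ly6a made up 3258 against 707.2 CPM. Of its 7205 against 6006 CPM in TAC, Ly6a made up 1672 against 514.4 CPM. Among genes seen in at least 10% of other fibroblasts with no cell holding over 20% of their UMIs, and with haemoglobin genes left out, none of the 10 ranked lowest in both libraries reached 2-fold: Kcnk2, a potassium channel, stood at 0.771 and 0.753 times, Abca6, a lipid transporter, at 0.604 and 0.773, and Akap12, a kinase anchor, at 0.559 and 0.812. Of the haemoglobin genes, Hbb-bt was at 0.243 and 0.246 times, at 13.6 against 56.0 CPM and 34.6 against 140.4 CPM. Any of the 5 red cell genes was seen in like shares of cells, 30.2% against 30.5% (sham) and 89.4% against 86.8% (TAC). Single other fibroblasts held up to 420733 and 342838 CPM of these 5 genes, and the part of such cells in the sums was not tested.

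Markers of other cell types were read over whole lists. Macrophage markers, all 15 of them seen, summed to 3.06 times the other fibroblasts' level in the sham cells and 1.03 times in the TAC cells, and without cells at the macrophage level to 1.07 and 0.835 times. Per cell, that list ran from 0 to 26573 CPM in sham and from 0 to 12875 CPM in TAC interferon-responding cells, and 34 of 86 and 209 of 367 held any UMI of it. Endothelial markers stood at 1.71 times (1.41 to 2.06) in the sham cells, from 116 UMIs, and at 0.995 times in the TAC cells. Of the 12 genes, 4 were 2-fold higher and 1 was lower in the sham cells, where Cdh5, Flt1 and Tie1 were at 0. Without cells at the macrophage level the sham ratio for endothelial markers was 1.72. Mural markers stood at 0.775 and 1.03 times, with Cnn1 at 0 in both libraries. Lymphocyte markers stood at 5.17 times (2.61 to 9.32) in the sham cells, from 12 UMIs, with 3 of 11 genes past 2-fold, and at 0.362 times in the TAC cells, from 5 UMIs; without cells at the macrophage level the sham ratio was 1.04, from 2 UMIs. Cd3e, Cd3d, Cd3g and Gzma were at 0 in both libraries. Neutrophil and monocyte markers stood at 2.99 and 1.56 times, with Ly6g and Chil3 at 0 in both. Schwann markers stood at 0.861 and 1.16 times, cardiomyocyte markers at 1.65 and 0.838 times and red cell genes at 0.132 and 0.524 times, and all 6 lymphatic endothelial markers were at 0 in the sham cells. Scrublet called 2 sham and 3 TAC interferon-responding cells doublets. The part of these other RNAs in the results was not tested. The 105 interferon genes summed to 2.82 times (2.76 to 2.89) for sham and 2.29 times (2.27 to 2.30) for TAC with all cells kept.

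The interferon-responding cells also carried the states of their library's fibroblasts. In TAC cells thinned to 3800 UMIs, Postn, which encodes periostin of activated fibroblasts, was seen in 72.4% against 67.6% of other fibroblasts and 5.43% of macrophage-gated cells, a type that should lack it. Cilp, a matrix protein gene, was seen in 48.1% against 50.1%, Meox1, a transcription factor of activated fibroblasts, in 74.3% against 75.5%, and Comp, a matrix protein gene, in 25.4% against 21.2%. Acta2 of contractile cells was seen in 4.64% against 6.53%. In the sham cells Postn was seen in 1.28% (1 of 78, 0.0325 to 6.94%) against 4.17%, and Cilp in 2.56% (2 of 78, 0.312 to 8.96%) against 5.0%. Meox1 was seen there in 17.9% (14 of 78, 10.2 to 28.3%) against 22.1%. Each of these intervals includes the other fibroblasts' value. All cells of this comparison were chosen at full depth and then thinned. Pi16, of adventitial fibroblasts, was seen in 76.9% against 73.8% in the sham library and in 83.9% against 82.3% in the TAC library. The interferon-responding cells and the other fibroblasts thus differed far less than the 2 libraries did, for Postn, Cilp and Meox1.

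**Figure D5:**
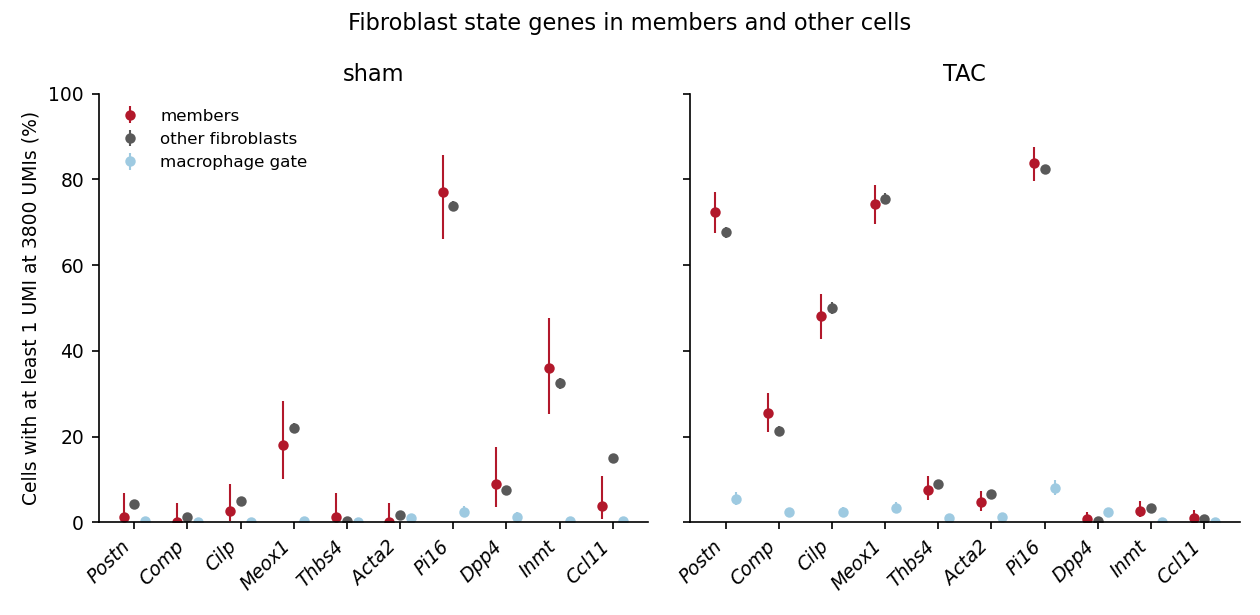
Percentage of cells with at least 1 UMI of 10 fibroblast state genes after thinning to 3800 UMIs (vertical axis) in interferon-responding fibroblasts (members), other fibroblasts and macrophage-gated cells, sham and TAC panels, with exact 95% intervals as bars. Postn was seen in 72.4% of TAC and 1.28% of sham interferon-responding fibroblasts (1 of 78 sham cells), beside 67.6% and 4.17% of the other fibroblasts.

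Between the libraries, 186 of 3791 genes measured in the interferon-responding cells were 2-fold higher in TAC (4.91%) and 150 were lower (3.96%). In the other fibroblasts, 141 of 3616 were higher (3.9%) and 108 lower (2.99%). Of 15 measured pressure-overload activation genes, 13 were 2-fold higher in both kinds of cell, with summed ratios of 8.12 and 6.66, and of the steady-state genes, 8 of 14 were lower in the interferon-responding cells and 9 of 15 in the other fibroblasts. Both sets of ratios come from the same 2 libraries.

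Postn stood at 3.89 CPM, from 2 UMIs, in the sham interferon-responding cells and at 1410 CPM in the TAC cells, beside 46.2 and 1324 CPM in other fibroblasts. Comp had 0 UMIs in the sham cells and 575.6 CPM in the TAC cells, at least 98.8-fold higher when 3 counts over the group stand as the floor, and in other fibroblasts it was 67.5-fold higher. With cells chosen at equal depth, the lower limit for Comp in the interferon-responding cells was 35.9-fold and the ratio in the others 67.6-fold, so no order between them was read. Cilp went from 13.6 to 451.5 CPM, 33.2-fold, beside 15.9-fold. Timp1, an inhibitor of matrix proteases, went from 15.5 to 359.8 CPM, 23.1-fold, beside 9.71-fold. With cells chosen at equal depth, Cilp was 26.25-fold higher (8.87 to 128.2) beside 17.07-fold, from 3 sham UMIs. Timp1 was then 17.12-fold higher (6.59 to 63.4) beside 9.43-fold, from 4 sham UMIs. Both intervals include the ratio in the other fibroblasts, so no order was read for these 2 genes. In the other direction, Inmt, a methyltransferase, went from 250.6 to 7.48 CPM beside 251.6 to 17.4 CPM in other fibroblasts, and Scara5, a ferritin receptor of adventitial fibroblasts, from 240.9 to 29.9 CPM. Atf3, a stress-induced transcription factor, went from 149.6 to 18.9 CPM, beside 86.1 to 21.1 CPM. In cells chosen at equal depth Atf3 stood at 0.386 times its sham level (0.166 to 0.914) in the interferon-responding cells, from 12 sham and 14 TAC UMIs. In the others it stood at 0.227 times, which that interval includes, so no order was read for Atf3.

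The interferon genes themselves did not differ 2-fold between the libraries in the interferon-responding cells, apart from 1 of 57 measured genes that was higher and 2 that were lower. Their sum was 0.932 times the sham level (0.911 to 0.954) in the TAC cells and 1.15 times in the other fibroblasts. This direction depended on depth: cells chosen at 3800 UMIs had sums of 17398 CPM (sham) and 21335 CPM (TAC), a ratio of 1.23 (1.18 to 1.28), and the median log2 ratio went from -0.26 to 0.36. No direction of TAC against sham was therefore read for the level within these cells. Fabp5, a fatty acid binding protein gene, was 2.26-fold higher in TAC interferon-responding cells beside 0.809 times in other fibroblasts, but was at 0.538 times in the cells chosen at equal depth.

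The interferon-responding cells gathered in clusters, but not all in 1. Fibroblasts of each library were clustered on variable genes without the 6 markers. In the sham library 51 of 86 cells (59.3%) lay in 1 of 19 clusters, of 110 cells, and the rest were spread so that 14 clusters held at least 1. In the TAC library 173 of 367 (47.1%) lay in 1 of 18 clusters, of 222 cells, and 17 clusters held at least 1. When all interferon-list genes were left out of the clustering, the cluster with most interferon-responding cells held 14 of 86 (16.3%) and 51 of 367 (13.9%), and these clusters held 14.1% and 14.6% of all fibroblasts. Without interferon genes, the fullest cluster thus held these cells at close to its share of all fibroblasts. Only that cluster was compared in each library, so how the cells lay in smaller clusters was not read.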

How the data were processed

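The UMI counts per gene and barcode were deposited by the authors as raw matrices of 31053 genes, written by Cell Ranger 3.1.0 per the file headers. The genome build mm10 and Seurat are named in the submitters' processing notes. Annotation, aligner settings and any filter before deposit: not given in the sources used here.

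Barcodes with at least 500 genes, at least 1000 UMIs and at most 15% mitochondrial UMIs were kept, 7964 sham and 8000 TAC. Doublets were kept, and leaving out Scrublet calls (99 sham and 163 TAC cells) was an alternative. UMIs were summed over cells and scaled to CPM. Levels have exact Poisson intervals, ratios exact conditional intervals and shares exact Clopper-Pearson intervals, all at 95%, and UMI counts of PCR copies are collapsed. Cells of 1 library are not replicates, so no test was made. Ratios were called at 2-fold on log2(CPM + 1), in genes with at least 50 CPM, and lists were counted over every gene with a UMI. For equal depth, cells were thinned without replacement to 3800 UMIs, the 20th percentile of the shallower library rounded down. Fibroblasts were clustered by Leiden at resolution 1.0 with seed 7.

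Genes named were the 6 selection markers, the 15 highest and 10 lowest ratios in both libraries (in at least 10% of cells, no cell with over 20% of UMIs), up to 4 genes of each list, more for interferon lists, and the largest TAC to sham ratios, from which those shown were taken; genes named after their values were seen are marked as such. The cells and all gene lists were chosen with earlier results of these data known. Alternatives tried were the number of markers, doublets, stricter or no cell filters, a stricter fibroblast gate, other comparison cells, pseudocount, expression filter, clustering and depth. The steps were tested on simulated data. Python 3.11.15, NumPy 2.4.6, SciPy 1.17.1, pandas 2.3.3, Scanpy 1.11.5, igraph 0.11.9, scikit-learn 1.9.0 and Matplotlib 3.10.9 were used.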

Additional observations from a re-analysis of the deposited data

How the results depend on the processing

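Of 126 values of the main results under alternative settings, 93 moved by less than their interval or 1.5 times and 33 moved further. A changed direction was counted 0 times, but only the larger median log2 ratios could be counted so. Shares, counts and small median ratios could not, among them the change of sign given below. With at least 3 of 6 markers, the shares were 2.54% in sham and 11.9% in TAC, and the median log2 ratios of interferon genes 1.65 and 1.57. With at least 5, the shares were 0.546% and 3.85%, their ratio 7.06, the TAC median 2.29, the sham genes 2-fold higher 141, and the genes lower in TAC than in sham within interferon-responding cells 240. At equal depth, the shares were 0.893% and 2.63%, their ratio 2.94, the TAC median 2.75, the genes higher 144 in sham and 105 in TAC, the genes higher and lower in TAC against sham 314 and 322, and the median log2 ratio of interferon genes between libraries 0.36 against -0.26, a change of sign. A pseudocount of 10 CPM gave a TAC median of 1.61. With no filter on low values, 858 sham and 222 TAC genes were higher, and 1630 and 1346 were higher and lower between libraries; with a filter at 100 CPM these were 55, 33, 112 and 72. At clustering resolution 0.5, 41.9% of sham and 35.7% of TAC cells lay in the fullest cluster, of 1819 cells (29.2% of sham fibroblasts, 1.98% of them interferon-responding) and 155 cells, so the sham cells were gathered less there; with interferon genes left out 16.3% and 13.9%. Unthinned, the macrophage ratio was 3.95. Leaving out cells at the macrophage level or with epicardial genes, the 50 thinning draws, the chemokine sum without Cxcl10 and the list counts over every gene with a UMI were chosen after seeing the data. The cause of these shifts was not tested. No paired analysis was possible because each group has 1 library. Depth limits the sham side most: 86 cells with 514683 UMIs, where 3 counts are 5.83 CPM.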

Other observations

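A few interferon-responding cells of the TAC library carried genes of the epicardium, the mesothelial layer on the heart's surface. Read over 8 epicardial genes, among them Msln, Upk3b and Krt19, 9 TAC fibroblasts held at least 3. Of these 9, 4 (44.4%, 13.7 to 78.8%) met the interferon rule, beside 6.77% of all TAC fibroblasts and 13.2% of those from 16000 UMIs on. Each of the 4 held all 8 genes, with 87 to 350 epicardial UMIs, fibroblast genes between 0.864% and 1.80% of UMIs, and 0 Postn UMIs. Of the 367 TAC interferon-responding cells, 362 held 0 epicardial genes. In the sham library 4 fibroblasts held at least 3 epicardial genes, each had 0 selection markers, and all 4 were shallower than the 4 TAC cells, at 1894 to 7070 UMIs. The 4 TAC cells held 19690 to 25980 UMIs, and 2 other TAC cells with epicardial genes, at 23953 and 28664 UMIs, had 3 and 2 markers and did not meet the rule. The part of depth was not tested. The summed epicardial level in TAC interferon-responding cells was 150.1 CPM against 8.18 CPM in other fibroblasts, and without cells holding at least 3 epicardial genes the ratio was 0.281, from 1 UMI.

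Red cell genes in the TAC interferon-responding cells rested on single cells: 73.9% of the Hbb-bs UMIs lay in 1 cell. Saa3, an acute-phase gene, had 131 UMIs in TAC interferon-responding cells, 94.7% of them in 1 cell.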
